A study of Mus musculus with 3 samples.

Results

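A set of 126 genes was called well above background in the E12.5 gonad, and not in the E14.5 gonad, of male mouse embryos labelled Cyp26b1-/-. They were chosen from 16354 genes named through RefSeq on 1-colour Agilent expression arrays. A gene was taken when its probe was called well above background on both E12.5 arrays and on neither E14.5 array, where the call is the scanner software's own flag for a spot that stands out from its local background. For a gene with several probes, the brightest over the 6 arrays stood for it. The 126 genes were 0.770% of the named genes. The opposite pattern, called on neither E12.5 array and on both E14.5 arrays, held for 276 genes. A different flag of the same software, for a positive and significant signal, gave 115 genes, of which only 13 were among the 126, so most of the genes named below are lost under one flag and not the other. Below, lost, detected and undetected refer to the well above background flag only. A lost gene may still have had a signal at E14.5 that the other flag calls significant. The flags and signals of the E12.5 and E14.5 arrays therefore chose these genes, and their fall between those stages is a description with no test.

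All samples were male gonads of embryos of the MCH mouse line with the genotype Cyp26b1-/-, taken at embryonic day 12.5, 13.5 or 14.5. Each stage had 2 arrays, which the series calls biological duplicates. Whether gonads were pooled is not given in the sources used here, so any p-value measures only the spread between these arrays. Arrays of control genotype were not analysed here, so no value below measures an effect of the genotype. The single Cyp26b1 probe was above background on all 6 arrays, and since its position relative to the deletion is not given in the sources used here, it does not check the genotype. The 2 E12.5 arrays shared a slide, and the 4 arrays of the later stages shared a second one. Stage and slide therefore cannot be told apart in any comparison with E12.5, and only the step from E13.5 to E14.5 was measured on a single slide.

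The fetal gonad at these stages commits to testis cords, in which Sertoli cells enclose the germ cells while Leydig and other interstitial cells lie outside. CYP26B1 is the P450 enzyme that degrades retinoic acid in the fetal testis and so keeps germ cells from entering meiosis. Genes near the detection limit of a bulk array can come from a rare cell type or from low transcription in many cells. In such bulk tissue, fewer cells of a type and less RNA per cell cannot be told apart. Markers of germ, Sertoli, Leydig, interstitial and endothelial cells were above background on all 6 arrays. The summed signal of 5 erythroid markers was 112268 and 148302 at E12.5, then 65495 and 47987 at E13.5, then 28807 and 11448 at E14.5. Most of it came from the globin gene Hbb-y, with 83146 and 112037 at E12.5 and 21974 and 8023 at E14.5. In a longer erythroid list, Ermap was also lower at E14.5, with 103 and 107 falling to 25.6 and 24.7. Hba-a1 instead had 100424 and 114002 at E12.5 and 131574 and 171720 at E14.5. Alas2 likewise had 2410 and 2632 at E12.5 and 3008 and 4973 at E14.5. The summed signal of 5 markers of the mesonephros and its ducts was 921 and 1263, then 707 and 475, then 569 and 270. Its largest part at E12.5 was Lhx1, with 711 and 863, against 149 and 97.0 at E14.5. Calb1 was also lower at E14.5, Pax8 was slightly lower, and the Cdh16 duplicates overlapped between the stages. Pax2 was higher, with 18.6 and 15.8 at E12.5 and 36.0 and 25.4 at E14.5. Both sums were thus highest at E12.5, as the signals of the lost genes were, but single genes of these cell types went the other way. None of these genes is among the lost genes, and their part in the results was not tested. Of the 28 measured genes of a germ cell and pluripotency list, 27 were above background on all 6 arrays and 0 were among the lost genes. Of the 28 measured genes of a Sertoli and pregranulosa list, 24 were above background on all 6 arrays and again 0 were lost.

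The lost genes mostly have promoters poor in CpG. Promoters, taken as 250 bases before to 50 bases after the gene start in RefSeq on GRCm38.p6, were matched for 99 of the 126 genes. Their median count of CpG was 5, against 16 over 13069 named genes on the array and 7 over 493 genes that were similarly dim at E12.5 but still detected on both E14.5 arrays. The observed over expected CpG ratio exceeded 0.6 in 21 of the 99 promoters (21.2%), against 55.0% of all named genes and 32.5% of the dim genes that were kept. The dim genes that were kept thus lay between the lost genes and all named genes, and closer to the lost ones in the CpG count. The TATA box letters TATAAA, searched on both strands, were in 16 of the 99 windows (16.2%), against 12.3% of all windows and 14.8% of those of the dim genes that were kept. The nuclear receptor motif AGGTCA was in 12 of the 99 (12.1%), against 13.4% of all windows and 16.8% of those of the dim genes that were kept. The letters CCAAT were in 30.3%, against 38.9% and 37.7%. The letters GCCNNNGGC, where N is any base, were in 12.1%, against 21.1% and 18.1%. A match is a description of letters and not a binding site.

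The 250 bases before the start of 4 of the lost genes show the range of these promoters, with each CpG in capitals. They are Acvr1c, whose 3 probes all met the detection rule, and the liver enzyme or plasma protein genes Uox, Fgb and Otc, of which Uox met it with both probes. Acvr1c lies at chr2:58357759-58358008 on the minus strand with 32 CpG, Uox at chr3:146596899-146597148 on the plus strand with 4, Fgb at chr3:83049864-83050113 on the minus strand with 3, and Otc at chrX:10252055-10252304 on the plus strand with 1 (GRCm38.p6, RefSeq, each 5' to 3').
Acvr1c: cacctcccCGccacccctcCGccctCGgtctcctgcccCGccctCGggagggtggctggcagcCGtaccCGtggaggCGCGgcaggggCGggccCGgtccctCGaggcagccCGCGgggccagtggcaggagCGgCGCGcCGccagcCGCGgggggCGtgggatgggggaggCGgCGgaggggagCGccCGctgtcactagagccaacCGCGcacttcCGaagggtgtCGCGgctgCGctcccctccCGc
Uox: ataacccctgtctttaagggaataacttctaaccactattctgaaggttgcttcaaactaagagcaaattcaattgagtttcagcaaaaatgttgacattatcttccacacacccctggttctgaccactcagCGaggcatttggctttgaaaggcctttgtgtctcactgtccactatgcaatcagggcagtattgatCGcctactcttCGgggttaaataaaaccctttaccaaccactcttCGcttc
Fgb: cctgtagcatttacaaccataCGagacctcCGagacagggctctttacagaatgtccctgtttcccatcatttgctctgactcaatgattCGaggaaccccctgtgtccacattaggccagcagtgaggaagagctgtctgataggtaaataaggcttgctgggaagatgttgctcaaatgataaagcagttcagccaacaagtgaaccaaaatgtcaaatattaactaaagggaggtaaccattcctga
Otc: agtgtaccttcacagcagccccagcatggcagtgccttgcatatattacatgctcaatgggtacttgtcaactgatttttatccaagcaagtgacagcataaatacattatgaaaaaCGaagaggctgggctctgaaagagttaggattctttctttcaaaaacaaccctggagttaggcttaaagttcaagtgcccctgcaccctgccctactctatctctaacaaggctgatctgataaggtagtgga
The upstream window of Acvr1c is dense in CpG, while those of the 3 liver genes hold few.

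Signals are given in scaled units, in which the 75th percentile of all probes of an array is 1000. The lowest scaled signal called well above background was 12.1 and 13.9 on the E12.5 arrays, 8.12 and 12.4 on the E13.5 arrays, and 11.6 and 13.7 on the E14.5 arrays. Signals below these limits are printed and fitted as the software gave them, and should not be read as levels. At E14.5, Obox2, called above background on 0 arrays, had 2.51 and 2.96, and the lost gene Otc had 2.55 and 2.97. The median signal of the 126 genes was 25.8 and 24.4 at E12.5, then 10.9 and 9.34 at E13.5, then 8.39 and 6.60 at E14.5. The median of all 13268 genes tested by limma lay between 1034 and 1074 on the 6 arrays, so the lost genes were dim from the start. Their E12.5 signals ran from 12.8 to 179 on the first array and from 14.4 to 207 on the second. Because an undetected spot gives only a bound, the fall is reported as "at least" a fold: the E12.5 mean over, on each E14.5 array, the higher of that array's lowest called signal and the gene's own signal, as means of log2 values. Spots without the call reached 18.1 and 19.7 on the E14.5 arrays, so the bound rests on a low limit and would be smaller with a higher one. It also allows for no noise in the E12.5 signals. The bound reached 2-fold in 60 of the 126 genes and 4-fold in 18, with a median of 1.93-fold. On both E12.5 arrays, 38 genes were at least 2-fold above the lowest called signal, and the other genes sat closer to it.

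**Figure D1:**
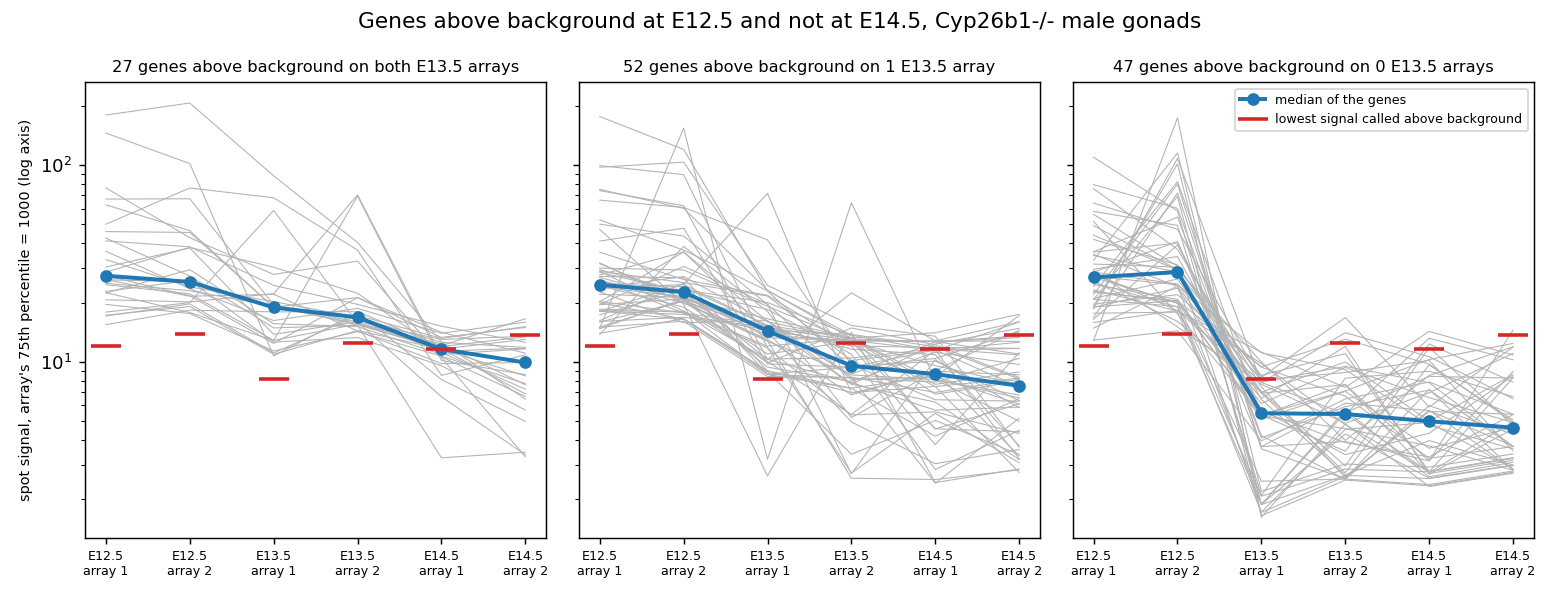
Scaled signal (log axis, 75th percentile of each array set to 1000) of the 126 genes on the 6 arrays, split by how many E13.5 arrays called them above background, with red marks for the detection limit of each array. The median falls from 25.8 and 24.4 at E12.5 to 8.39 and 6.60 at E14.5.

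The genes nearest the limit of the rule show how narrow it is. Just inside it, F11 had scaled E12.5 signals of 12.9 and 14.4, and Slc9c1 had 12.8 and 174. S100a14 (29.1 and 15.0) and Crxos (22.7 and 15.8) were likewise kept. Just outside it, Ifnl3 (33.0 and 19.7), Them7 (22.5 and 19.4), Olfr332 (20.2 and 19.1) and Lad1 (27.8 and 18.7) were not called on the second array although their signals were above those of F11. The call of the software also takes in the noise of the background around a spot. With the first E12.5 array left out 199 genes met the rule, with the second left out 373, and with the first E14.5 array left out 234. A further 320 genes were called on 1 E12.5 array and 0 E14.5 arrays, and 128 on both E12.5 arrays and 1 E14.5 array.

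The E13.5 flags were not part of the rule, although E13.5 signals helped to pick the brightest of several probes, and they split the genes in 3. At E13.5, 27 genes were still above background on both arrays, 52 on 1 array and 47 on 0. Of the 52, 48 were called only on the first E13.5 array, which also had the lower limit of detection. With the first E13.5 array left out 31 genes were still detected at E13.5 and 95 were not, and with the second left out 75 were and 51 were not. Over all named genes, 61 went from both arrays at E12.5 to 0 at E13.5 (0.373%) and 57 from both arrays at E13.5 to 0 at E14.5 (0.349%). The median scaled signal by stage was 25.8, 17.6 and 9.85 for the 27 genes still detected on both E13.5 arrays. It was 23.8, 11.9 and 7.64 for the 52 detected on 1, and 30.1, 4.92 and 5.06 for the 47 detected on 0. The signals of the 47 at both later stages are below detection, and their flags at both stages put them in this class, so the 2 medians have no order.

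In limma, with the Benjamini-Hochberg adjusted p under 0.05 over all genes tested, 83 of the 126 genes (65.9%) were lower at E13.5 than at E12.5, where 14.0% of all tested genes were. The 83 became 50 without the first E12.5 array or without the second E13.5 array. At E14.5 against E12.5, the contrast that chose the genes, the count was 107 (84.9%) against 21.1%. These counts share the E12.5 arrays with the rule, so nothing is read from them. At E14.5 against E13.5, within a slide, 1 of the 126 was lower (0.794%), against 0.00754% of tested genes. That gene, Ldoc1, was the only tested gene called lower there. Its scaled signals were 10.9 and 12.7 at E13.5, then 4.57 and 4.40 at E14.5. Of these 4 spots only that of the first E13.5 array was called above background, so no size of the difference is given. The call of Ldoc1 was absent with the array number as a replicate block, where 0 of the 126 genes were called lower, and with only the 4 arrays of the later slide, where 0 genes were called. The E14.5 arrays helped choose it, so that call is no independent support. With 1 array left out, 4 of the 126 were called lower without the second E13.5 array and 0 without any of the others. The median log2 difference of the 126 genes was -1.35 from E12.5 to E13.5 and -0.43 from E13.5 to E14.5, where the medians of all tested genes were 0.04 and -0.01.

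The rule favours E12.5 signals above those of E14.5, so nothing is read from the next count. Its share over all genes was not counted. Of the 126 genes, 112 had both E12.5 arrays above all 4 later arrays. In the other 14 at least 1 later array reached an E12.5 array, and in 4 of them at least 1 E13.5 array exceeded both E12.5 arrays: Olfr353, Olfr658, Olfr786 and Gm4907. Olfr353 had 18.0 and 24.8 at E12.5 and 71.7 and 6.92 at E13.5. Olfr658 had 17.9 and 20.0, then 58.8 and 15.7. Olfr786 had 20.7 and 20.1, then 22.2 and 70.5, and Gm4907 had 22.4 and 17.8, then 12.8 and 69.5. In each of the 4, one E13.5 array lay far above its duplicate, and for Olfr786 that duplicate was also slightly above both E12.5 arrays.

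The groups by role below were made after the genes were known, and for the lost genes only. Their counts therefore have no share over all genes beside them and show no enrichment. Receptors and ligands, grouped with the signalling regulator Rgs18, made up 12 of the lost genes, and 7 of the 12 had a bound of at least 2-fold. Acvr1c, the activin receptor-like kinase ALK7 that carries Nodal and activin signals, had 176 and 120 at E12.5, then 22.9 and 9.33 at E13.5, then 10.4 and 14.2 at E14.5, at least 11.3-fold lower. Its other 2 probes gave 102 and 57.3 then 8.96 and 8.23 then 4.47 and 3.56, and 57.0 and 41.7 then 10.7 and 4.23 then 6.88 and 5.61. The 14.2 of the brightest probe lies above the lowest called signal of its array, although the spot itself was not called. All 3 Acvr1c probes thus show both E12.5 arrays above every later array. Avpr1b, a vasopressin receptor best known from pituitary corticotropes, had 79.5 and 60.2 at E12.5, then 4.205 and 2.52 at E13.5, then 5.98 and 4.28 at E14.5, at least 5.49-fold lower. Cga, the alpha subunit shared by the glycoprotein hormones, had 74.1 and 62.1, then 10.3 and 7.84, then 5.67 and 5.88, at least 5.38-fold lower. The trace amine receptor gene Taar9 had 45.9 and 45.4, then 18.9 and 21.2, then 14.1 and 11.1, and no 2 stages of it overlapped. Fgf16, a fibroblast growth factor, had 34.7 and 28.6 at E12.5 and at most 11.002 later. The relaxin family receptor Rxfp2, through which INSL3 acts on the gubernaculum, had 31.4 and 30.3, then 8.33 and 16.8, then 5.89 and 11.9. The muscarinic receptor gene Chrm4 met the rule with both of its probes. Ptger2, Ctf2, Fpr-rs3, Gpr37l1 and Rgs18, a regulator of G-protein signalling, completed the group.

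Transcription factor genes numbered 12, and most of them are best known from other organs. Helt, a repressor of the neural tube, had 75.1 and 60.2 at E12.5, then 23.1 and 13.2 at E13.5, then 7.67 and 8.87 at E14.5, at least 5.34-fold lower. Neurog2, which sets the neuronal fate, had 36.1 and 40.1, then 5.60 and 3.88, then 3.28 and 5.39. Hoxa11, which patterns the limb and the urogenital tract, had 41.9 and 31.1, then 7.05 and 2.95, then 11.8 and 4.75. Cdx2, a factor of the hindgut, had 26.8 and 20.8, then 12.8 and 2.56, then 2.52 and 2.82. Tbx4, the hindlimb T-box gene, had 24.6 and 22.1, then 12.8 and 15.5, then 11.7 and 6.86. Hoxa11, Cdx2 and Tbx4 were the 3 lost genes among 49 measured genes of a limb and axial list, in which 32 were above background on all 6 arrays. Hoxb8, Hoxd1 and Hoxd11 of the same list went the opposite way and were detected on both E14.5 arrays but on neither E12.5 array. Evx1, Sox5, Myb, Csrnp3 and Crxos were also in the set.

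Genes of nerve and secretory cells numbered 8, and 7 of them had a bound of at least 2-fold. Scgn, a calcium-binding protein of neuroendocrine cells, had 67.1 and 67.3 at E12.5, then 19.4 and 15.9 at E13.5, then 6.64 and 3.36 at E14.5. Dclk1, a microtubule-associated kinase, had 64.1 and 47.1, then 7.86 and 5.42, then 13.1 and 10.2. The other Dclk1 probes were not above background on both E12.5 arrays. Stmn2, which regulates microtubules in growing axons, had 30.3 and 37.9, then 13.8 and 16.0, then 12.98 and 13.5. With Neurog2 it made 2 lost genes among 31 measured genes of a neural list, of which 17 were above background on all 6 arrays. Other neural genes had higher signals at the later stages: Tubb3, a neuronal tubulin, had 237 and 304 at E12.5 and 804 and 1118 at E14.5, and Elavl3, a neuronal RNA-binding protein, had 58.2 and 57.3 at E12.5 and 218 and 361 at E14.5. Cdhr1, Rims1, Prmt8, Pde6b and Sorcs1 were the remaining genes of the group. Among 9 genes of channels and transporters, Kcnc1, a voltage-gated potassium channel of fast-firing neurons, had 32.9 and 115 at E12.5, then 2.19 and 3.02 at E13.5, then 2.92 and 3.40 at E14.5. The other 2 Kcnc1 probes were above background on 0 arrays. Slc9c1, the sodium-proton exchanger of sperm, had 12.8 and 174 at E12.5 and at most 4.83 later. Gja10, Gabrp, Slco4c1, Slc22a30, Gabra5, Mcub and Trpc7 had lower bounds than this pair.

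Epithelial genes numbered 11, with 6 already undetected at E13.5. Sprr2d, a precursor of the cornified envelope, had 110 and 58.4 at E12.5, then 1.88 and 5.66 at E13.5, then 2.60 and 3.08 at E14.5, at least 6.35-fold lower. It was the 1 lost gene among 35 measured genes of a cornified envelope and keratin list. Upk2, a uroplakin of the urinary tract lining, overlapped between E12.5 and E13.5 and was lower on both E14.5 arrays, with 50.02 and 76.4, then 68.1 and 36.9, then 8.53 and 10.8. For Upk2 the bound of E13.5 over E14.5, within a slide, was 3.98-fold. Krt86, a hair keratin, had 14.8 and 154 at E12.5, then 3.19 and 64.3 at E13.5, then 8.11 and 4.99 at E14.5. The second array of the duplicate was the high one for Krt86 at both E12.5 and E13.5. Ceacam10, Tff2, Otoa, Smgc, S100a14, Cldn19 and Tmprss2 were also in the group, and the second Cldn19 probe was above background on 1 E14.5 array.

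Immune genes numbered 11. Gbp2b, an interferon-induced guanylate-binding protein, had 76.5 and 42.7 at E12.5, then 27.8 and 32.5 at E13.5, then 10.5 and 3.29 at E14.5, at least 4.54-fold lower. Saa3, an acute-phase protein, had 33.1 and 24.0, then 20.2 and 16.8, then 12.6 and 11.8. Pglyrp3, Cd96, Nlrc4, Cd300ld3, Il23a, Nlrp1a, Cd247 and Fcgr4 were also in the immune group. Of the 33 measured genes of an immune list, 0 were lost, 15 were above background on all 6 arrays and 11 on 0.

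Lipid and steroid enzyme genes outside the liver lists numbered 6. Pla2g4e, a cytosolic phospholipase A2, had 99.3 and 89.4 at E12.5, then 11.7 and 5.37 at E13.5, then 5.56 and 4.32 at E14.5, at least 7.48-fold lower. Akr1c18, which inactivates progesterone, had 36.2 and 54.3, then 4.11 and 5.91, then 7.17 and 3.71. Plcxd1, Ces2a, Acot3 and Scd3 were the others. Among 5 adhesion and protease genes, Kirrel2, a nephrin-related adhesion molecule, had 62.7 and 46.4, then 18.9 and 16.6, then 11.1 and 7.26. Its other probe was above background on 1 E14.5 array. Mmp16, Adam26a, Lrrc15 and Mmp28 had bounds below that of Kirrel2. Among 3 genes known from the testis, with Tssk1 and Ttc29, Tex37 had 75.8 and 37.3 at E12.5, then 7.45 and 2.58 at E13.5, then 5.66 and 2.84 at E14.5.

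Genes with no assigned role numbered 24, and they include the pair with the largest bounds among those detected on both E13.5 arrays. For 1700024G13Rik the signal was 179 and 207 at E12.5, then 88.1 and 40.4 at E13.5, then 12.6 and 6.46 at E14.5, at least 14.7-fold lower. Within the slide, 1700024G13Rik was at least 4.54-fold lower at E14.5 than at E13.5. AI593442 had 145.2 and 102, then 10.7 and 17.8, then 8.12 and 4.97, at least 9.65-fold lower. Dapl1 had 66.3 and 60.9, then 41.6 and 9.66, then 6.41 and 6.30. Its E13.5 duplicates thus lay far apart. The bounds of the 24 ran from 1.16 to 14.7-fold. Of the 27 genes detected on both E13.5 arrays, 7 had a bound of at least 2-fold for E13.5 over E14.5. These include Gm4907, Olfr658 and Olfr786, in each of which 1 E13.5 array lay far above its duplicate.

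Liver genes made up 12 of the lost genes, and 8 of them were above background on 0 E13.5 arrays. Uox, the urate oxidase of peroxisomes, had 97.4 and 103 at E12.5, then 24.4 and 15.3 at E13.5, then 13.5 and 3.69 at E14.5, at least 7.40-fold lower. Its second probe gave 30.5 and 39.1, then 11.8 and 10.1, then 4.11 and 2.79. Nr1i2, the xenobiotic receptor PXR, had 58.1 and 49.3, then 2.09 and 8.25, then 8.95 and 6.64, and Hsd3b5, a hepatic steroid reductase, had 41.0 and 47.8, then 9.74 and 9.39, then 10.1 and 6.35. For Uox, Nr1i2 and Hsd3b5 the E12.5 duplicates were close. Fgb, the beta chain of fibrinogen, had 18.6 and 108 at E12.5, then 7.82 and 14.1 at E13.5, then 10.6 and 6.49 at E14.5. Otc, the urea cycle enzyme, had 19.2 and 101, then 1.88 and 2.64, then 2.55 and 2.97, and its other probe was above background on 0 arrays. For Fgb and Otc the second E12.5 array was 5.82 and 5.28 times the first.

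The liver genes Cyp4a14, Itih1, Kng1, Slc13a5, Apcs and F11 were closer to the detection limit. F11, a clotting factor, had 12.9 and 14.4 at E12.5, and Apcs, a serum pentraxin, had 13.9 and 16.5. The difference of E14.5 from E12.5 changed sign under normexp with an offset of 50 for Apcs, F11, Itih1, Kng1 and Slc13a5, and likewise for S100a14 and Crxos.

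Other liver genes moved with that second E12.5 array. Alb, serum albumin, had 4.62 and 630 at E12.5, and no later array was above 16.4. Afp, alpha-fetoprotein, was detected on all 6 arrays, with 38.7 and 2385 at E12.5, then 114 and 197 at E13.5, then 262 and 486 at E14.5. The summed signal of the 23 measured plasma protein genes was 1998 and 5818 at E12.5 and between 2422 and 3191 on the later arrays. Of these 23, Ttr, Fga, Apoh and F12 were above background on 0 arrays and 9 were above background on all 6. The summed signal of the 19 measured liver metabolism genes was 1033 and 1146 at E12.5 and between 1240 and 1630 later, with Hpd, Cyp2e1 and Cyp7a1 above background on 0 arrays. These liver lists were made after the values were seen and partly from the lost genes, so no enrichment can be read from them. The part of liver RNA in these results was not tested.

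**Figure D2:**
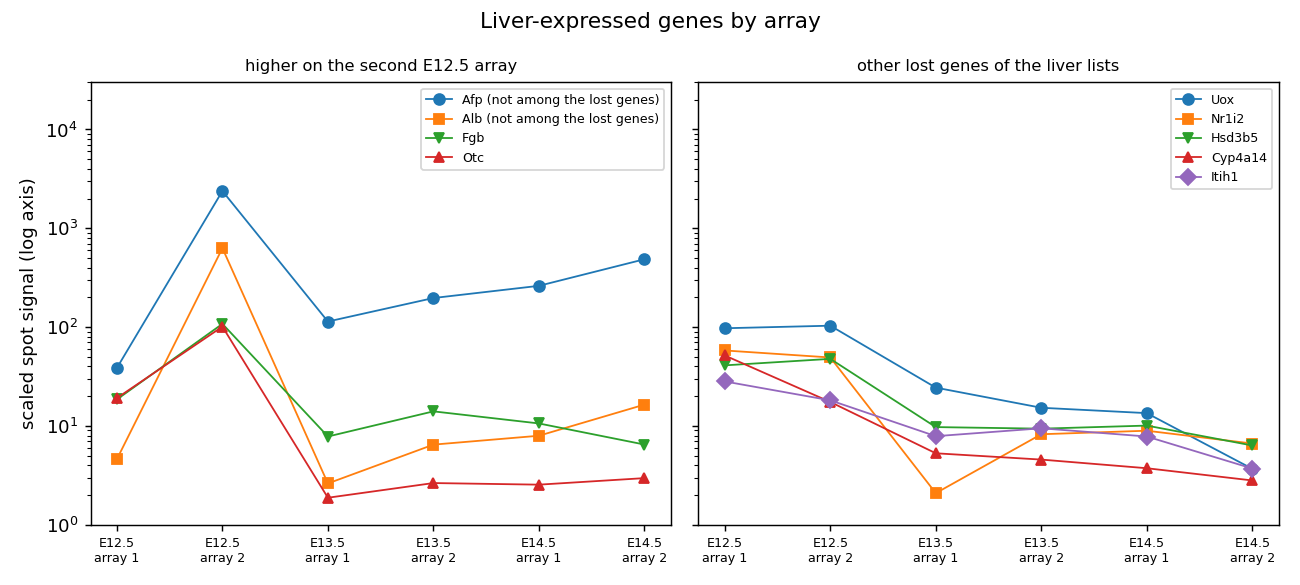
Scaled signal (log axis) of liver genes on each of the 6 arrays. Alb rises from 4.62 to 630 and Afp from 38.7 to 2385 between the first and second E12.5 arrays, and Fgb and Otc are higher on the second.

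Duplicates lay farther apart for the lost genes than for all tested genes, most of which are brighter, at every stage. The median SD of log2 signal between duplicates from the earliest to the latest stage was 0.24, 0.39 and 0.29 for the 126 genes, and 0.11, 0.09 and 0.11 for all tested genes. At E12.5, over the 126 genes the SD of the log2 gap between the duplicates was 0.81, against 0.36 over all tested genes, and the median gap was -0.10 against -0.01. The second array was at least 2-fold higher for 11 genes and the first for 3. The 11 included Slc9c1, Krt86, Fgb, Otc, Gipc3, Kcnc1, Olfr1212, Rgs18 and 1700034I23Rik, and the 3 were Cyp4a14, Pglyrp3 and Tex37. Slc9c1 differed by 13.5-fold and Krt86 by 10.4-fold. These pairs give the E12.5 level only to within their own spread.

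**Figure D3:**
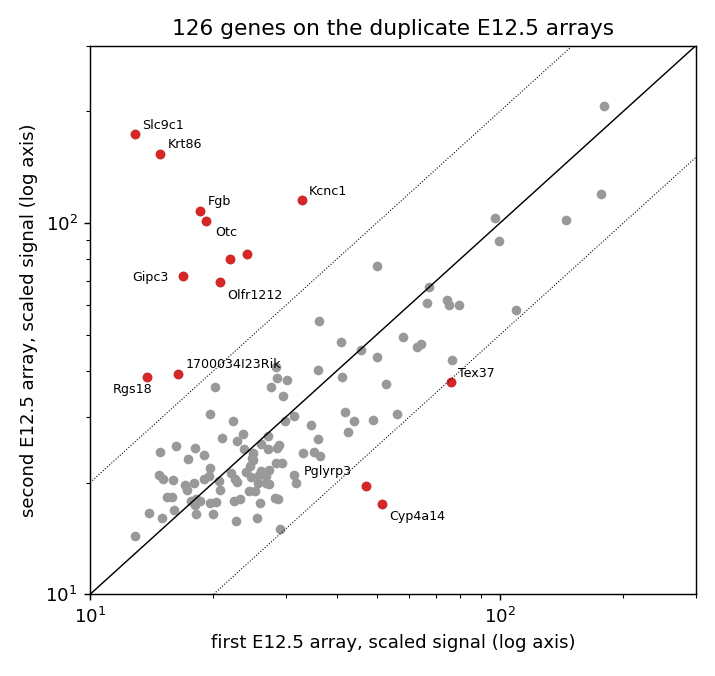
Scaled signal of the 126 genes on the first (x) and second (y) E12.5 array, both on log axes, with genes that differ by at least 2-fold in red and most of these named. Slc9c1 and Krt86 lie farthest from the line of equality, at 13.5 and 10.4 times higher on the second array.

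Olfactory receptor genes, which detect odorants in the nose, numbered 13 of the 126 (10.3%). They were 5.42% of all named genes, 0.959% of those above background on both E12.5 arrays, 5.56% of the 629 dim genes that were kept and 25.3% of genes above background on 0 arrays. In the opposite set of 276 genes they were 3.62%. Their bounds ran from 1.46 to 3.01-fold, with 4 of 13 at 2-fold or more. Olfr513 had 41.1 and 38.4 at E12.5, then 24.4 and 19.6 at E13.5, then 15.1 and 12.6 at E14.5, and Olfr1212 had 20.7 and 69.3 and then at most 2.75. Genes of this family share sequence, so a probe for 1 member may bind others.

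A probe other than the brightest was present for 20 of the 126 genes. Of these 25 other probes, 14 were above background on 0 arrays and 4 met the rule, belonging to Acvr1c, Chrm4 and Uox. None was above background on both E14.5 arrays, and 21 of 25 were lower at E14.5 than at E12.5. For the 14 the sign compares undetected signals, and the share over all probes was not counted, so nothing is read from the 21. The lost genes with a second probe that repeats the pattern are thus 3 of 20.

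**Figure D4:**
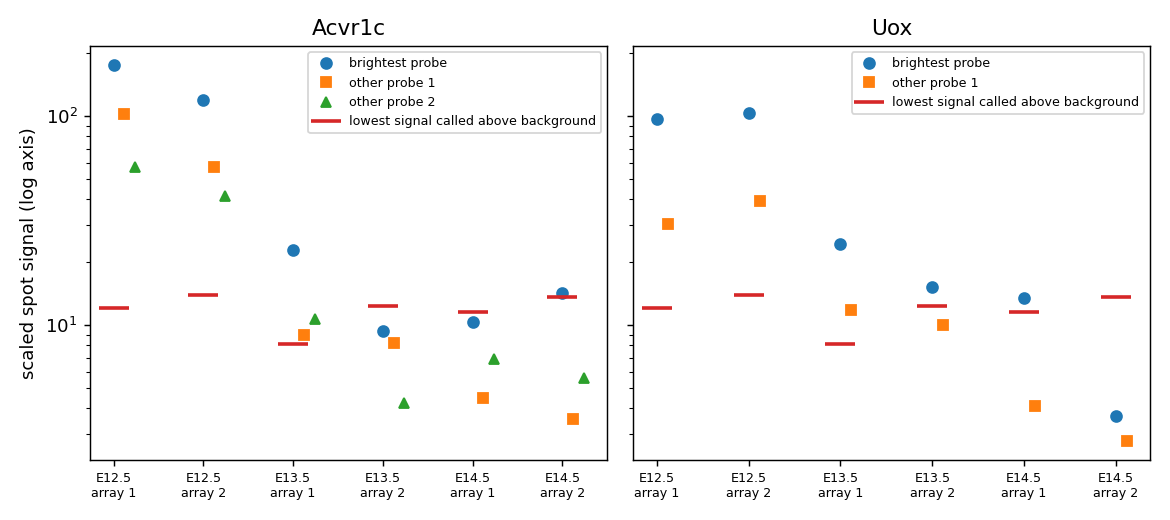
Scaled signal (log axis) of the 3 Acvr1c probes and the 2 Uox probes on the 6 arrays, with red marks for the detection limit. Each probe is above the mark on both E12.5 arrays, and the brightest Acvr1c probe falls from 176 and 120 to 10.4 and 14.2 at E14.5.

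The size of the fall depends on how the background is subtracted and on any offset added to the signal. With the deposited background-subtracted signal the median log2 difference from E12.5 to E14.5 was -1.94. With normexp correction and an offset of 50 it was -0.04, with 71 of the 126 genes lower and 55 higher. With normexp and an offset of 0, chosen after the data were seen, it was -0.91, with 126 of 126 lower. The offset is added in intensity units, before scaling. The 75th percentile of the deposited signal was 1793 and 1393 at E12.5, and 974 and 1099 at E14.5. A fixed offset can thus weigh more at E14.5, and its part in the signs with an offset of 50 was not tested. In the authors' deposited table, all 126 were lower, with a median of -1.85. All these counts of lower genes share the E12.5 and E14.5 arrays with the rule, so none is independent support. No 2 of the 126 genes were neighbours in the order of protein-coding genes (0 pairs).

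**Figure D5:**
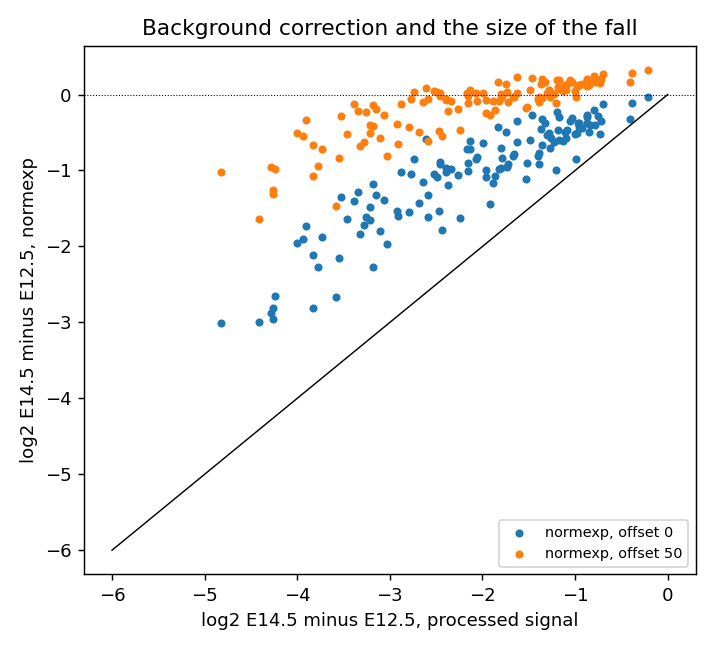
Log2 difference of E14.5 against E12.5 for each of the 126 genes with the deposited signal (x) and with normexp (y), at offsets of 0 and 50, with the line of equality. The median is -1.94 with the deposited signal, -0.04 with normexp and an offset of 50, and -0.91 with an offset of 0.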

How the data were processed

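Spot intensity on 6 arrays of 3 stages was read from the deposited scanner files. Per the file headers, the authors' Agilent Feature Extraction software had subtracted the background and removed spatial trends, without scaling between arrays; its version was 9.5 per the submitters' processing notes. The deposited table of the authors gives each probe a ratio at every stage, and its reference is not given in the sources used here. Outlier spots were left out, repeated spots averaged, and 21 of 41174 probes missing on an array were dropped. RefSeq names (GRCm38.p6) matched 22943 probes, and 18210 stayed unnamed.

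Log2 intensity minus each array's 75th percentile was fitted with limma 3.58.1 in R 4.3.3 for the 13268 genes detected on both duplicates in 1 stage or more, with 3 residual degrees of freedom, and tested on simulated data. Python 3.11.15 was used for the rest. The genes and lists were chosen with earlier results of these data known, and the roles and liver lists after the members were known. Named genes are the 12, 8 and 12 genes with the largest bounds among those detected on 2, 1 and 0 E13.5 arrays, list members, and the 4 genes on each side of the limit; other names were chosen after values were seen, and some genes are not reported here. Array numbers follow file order and were not taken to pair samples. Deviations of same-numbered arrays correlated at -0.04, -0.06 and 0.23, the last between E13.5 and E14.5, which shared a slide. These values cannot show whether samples were paired. Alternatives covered background correction, scaling, filters, probe choice, flags, the fit and leaving out each array. The number of arrays limits the precision.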

Additional observations from a re-analysis of the deposited data

How the results depend on the processing

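The number of genes that met the rule was 38 when a 2-fold margin over the detection limit was asked for on both E12.5 arrays, with 10, 11 and 17 of them detected on 2, 1 and 0 E13.5 arrays. Leaving out 1 E12.5 or E14.5 array gave 146 to 373 genes, with 29 to 96, 60 to 105 and 48 to 235 in those classes. Leaving out 1 E13.5 array kept the 126 and gave 31 and 95, or 75 and 51, detected and not detected at E13.5. Another flag of the scanner software, for a positive and significant signal, gave 115 genes, of which 13 were shared, so which genes are lost depends on the flag. The cause was not tested.

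For E13.5 against E12.5, genes past the limma threshold numbered 2831 with no filter and 1403 to 3906 with 1 array left out. Lost genes called lower numbered 23 with normexp (50 to 87 with 1 array left out), and their median was -0.06 with normexp and -0.68 with normexp and an offset of 0 (-1.53 to -1.17). For E14.5 against E12.5, genes called numbered 3881 to 5370 with 1 array left out, lost genes called lower 22 with normexp (79 to 116), and the medians were -0.04 and -0.91 (-2.05 to -1.87). For E14.5 against E13.5, genes called numbered 98 with median scaling, 383 with normexp, 330 with a trend and robust prior, 0 with normexp and an offset of 0, with the mean of probes, with no filter, with a filter on all 6 arrays and with 4 arrays, and 0 to 41 with 1 array left out. Lost genes called lower there numbered 2 with quantile normalization, 9 with median scaling, 5 with a trend and robust prior, 0 with normexp, with an offset of 0, with the mean of probes, with no filter and with 4 arrays, and 0 to 4 with 1 array left out. Their median was 0.02 with normexp (-0.49 to -0.30). The replicate block gave 1 gene called and 0 lost genes called lower for E14.5 against E13.5, and 83 and 106 lost genes called lower for the other comparisons. Median scaling moved the median of all genes for E14.5 against E12.5 to -0.12, and 3329 of 5654 calls were then lower, against 2797 of 6183.

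With normexp, E14.5 against E12.5 reversed to 0.14 for Apcs, 0.19 for F11, 0.02 for Itih1, 0.04 for Kng1, 0.04 for Slc13a5, 0.16 for Crxos and 0.02 for S100a14. Of the values of 45 named genes under alternatives, 581 stayed within their spread, 87 moved and 7 reversed. Dim signals limit every value here.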
